A study of Mus musculus with 18 samples.

Results

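The loci of 8 genes for homing receptors and adhesion molecules of T cells were described by the accessible chromatin regions deposited at them: the chemokine receptors Ccr2, Cxcr4 and Cxcr6, the integrin subunits Itga4, Itgb1 and Itgae, the hyaluronan receptor Cd44 and the selectin ligand Selplg. A region was assigned to a gene when the deposited annotation named the gene as overlapped by the region or as lying to its left or right. By this rule 49 of the 65983 regions of the table belonged to the 8 genes, all 8 had at least 2, and no region named more than 1 of them. ATAC-seq maps open chromatin by the sites where a transposase can insert. It was run on mouse CD4 T cells that had been activated from the naive state with beads against CD3 and CD28 and grown with IL2, IL12 and an antibody to IL4, all of which the groups shared. The 18 samples formed 6 groups of 3: Id3 knockout (KO) and wild type (WT) cells labelled Th1 at 24 h, labelled Tcmp at 72 h, and labelled Teff at 72 h. Tcmp and Teff are used as the labels give them, and the labels do not say how the knockout was made, how the cells were separated, or if a group's 3 samples are separate mice or cultures. Id3 binds and inhibits E proteins, transcription factors that recognise the E-box motif.

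Circulating T cells leave the blood in steps. Selectins on the vessel wall bind glycoprotein ligands such as the product of Selplg and slow the cell, chemokines then signal through receptors such as those of Ccr2, Cxcr4 and Cxcr6, and integrins are switched to a state in which they hold the cell to the vessel wall and the matrix. Promoters and introns of such genes hold the regulatory DNA that ATAC-seq detects as open.

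The table gives comparisons between groups and no value per sample, and the same 65983 regions stand under each of its 6 contrasts. It therefore shows where regions were called but not in which group a region was open, and it has no replicate error. When each region p-value below 1 was divided by the region's number of windows, the quotient fell in 0 steps down the table in each of the 6 contrasts. The deposited statistics are thus sorted along the chromosomes, and a fold change or p-value was not read as belonging to the region in its row. What this does at the 8 loci is seen in the deposited calls (adjusted p at most 0.05, authors' deposited table). In the Id3-KO against WT contrast at 24 h, 2 of the 49 regions were called, both at Cxcr4, where 12.7% of all regions were called. In the Tcmp contrast 12 were called (18.7% of all regions), in the Teff contrast 2 (9.52%), in the contrast of both labels at 72 h 12 (22.9%), in the KO contrast of Teff against Tcmp 12 (44.0%) and in the WT contrast of Teff against Tcmp 0 (2.32%). The called regions were those of Cxcr4 on chromosome 1 and Itgae on chromosome 11, which stand early in the table, and the regions of the other 6 genes on chromosomes 2, 5, 8 and 9 had no call in any contrast. Nothing is read from these calls. For the same reason the values listed at the Id3 gene cannot check the genotype labels.

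As a check of the cell type, all 5 T cell marker genes (Cd3e, Cd3d, Cd4, Cd28 and Lck) had a region that overlaps their own promoter, as did 3 of 4 Th1 genes. The fourth, Tbx21, had 6 regions, none of them over its promoter. No region named the myeloid genes Lyz2, Csf1r and Cd14, the B cell gene Ms4a1 or the erythroid gene Hbb-bs, while the B cell gene Pax5, the myeloid gene Spi1 and the erythroid genes Gata1 and Klf1 each had a promoter region. Of the CD8 genes Cd8b1 had a promoter region and Cd8a only 1 flanking region, and of the epithelial genes Epcam had a promoter region and Krt8 1 intron region. Because a region shows a called site and not its level, this does not measure how pure the cells were.

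The 8 genes differed 5-fold in their number of regions, from 10 each at Itgae and Cd44 to 2 at Cxcr4. Between them lay Selplg with 9, Itga4 with 6, Itgb1 with 5, Ccr2 with 4 and Cxcr6 with 3. Over the 26755 genes that the table names, the median was 2 (quartiles 1 and 3), and over the 19399 of these with a gene symbol it was 2 (quartiles 1 and 4). More than 10 regions were listed for 2.75% of all named genes, and more than 9 for 3.4%. Cxcr4 was at the median: 37.5% of genes had more regions and 37.4% had fewer. Longer genes have more room for regions, and gene length was not taken into account.

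**Figure D1:**
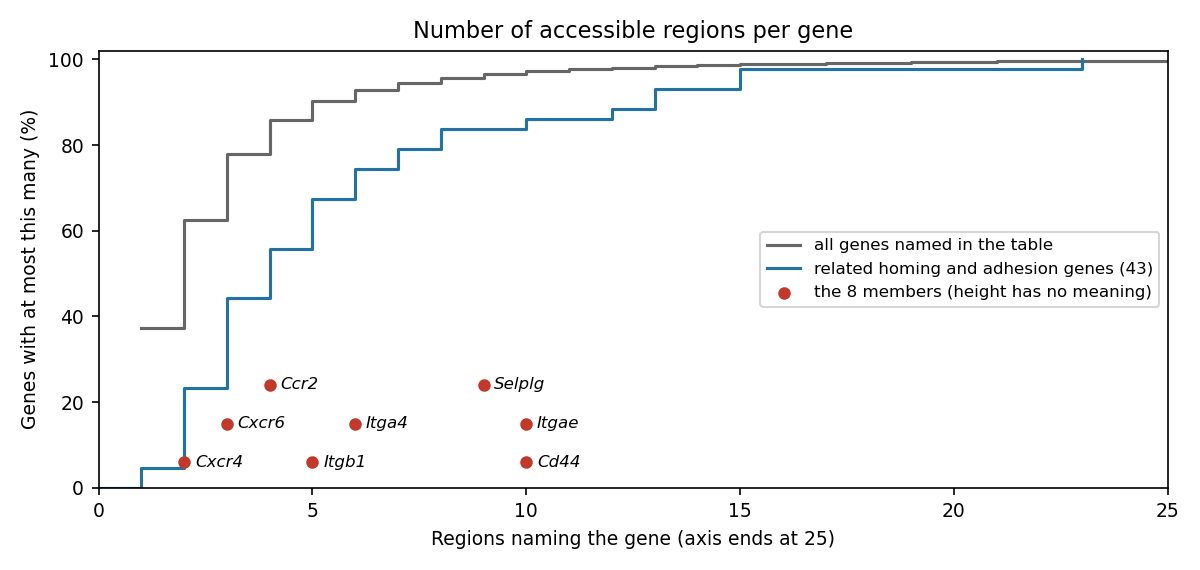
Cumulative share of genes (vertical axis, %) by the number of regions naming a gene (horizontal axis), for the 26755 genes of the table (grey) and 43 related homing and adhesion genes (blue), with the 8 loci as red points at their number of regions. Cxcr4 stands at 2 regions and Itgae and Cd44 at 10, where the grey curve is nearly flat.

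All 8 genes had a region over their own promoter, against 76% of all named genes and 81.9% of those with a gene symbol. The deposited annotation marks promoter (P), exon (E) and intron (I) overlap. Here a region with P counts as promoter whatever else it holds, then exon, then intron, and a region listed only to the left or right of a gene counts as flanking. Regions marked P alone lay up to 3000 bp from the nearest downstream exon of their gene (median 1604 bp over 6682 pairs of region and gene), so that P reaches well beyond the start site. Of the 49 regions 12 were promoter, 7 exon, 24 intron and 6 flanking regions of the gene they name. Over all 76685 deposited pairs of region and gene, 37% were promoter, 7.16% exon, 34.2% intron and 21.7% flanking. The 8 loci thus had larger intron (49%) and exon (14.3%) shares, and smaller promoter (24.5%) and flanking (12.2%) shares. These shares are a description of 8 chosen genes and have no test.

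**Figure D2:**
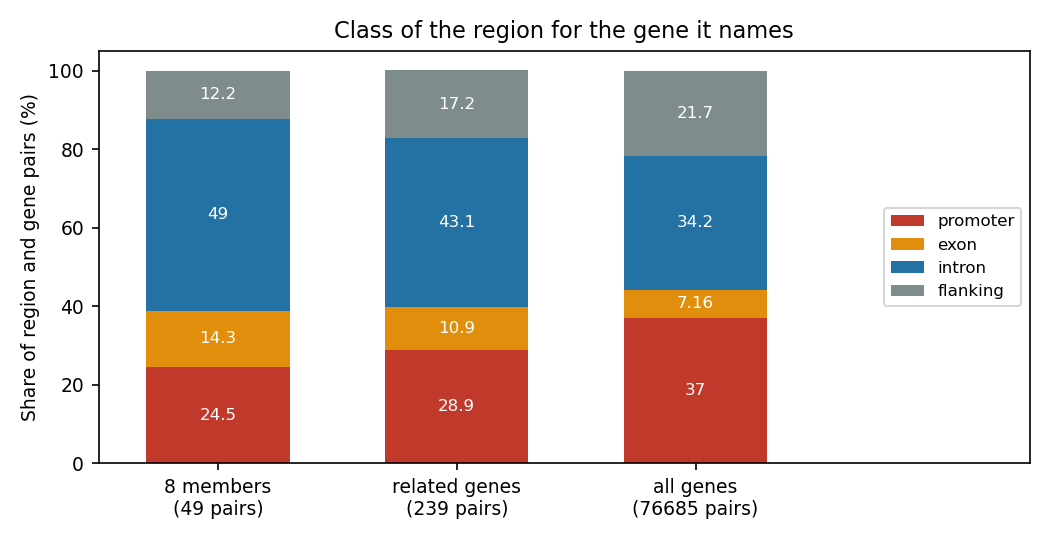
Share of pairs of region and gene (vertical axis, %) in each class for the 8 loci, the 43 related genes and all genes of the table. Intron regions made up 49% at the 8 loci, 43.1% at the related genes and 34.2% over all genes.

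The intron share came from 5 genes. Itgae had 7 intron regions, Cd44 had 6, Itga4 had 5, and Itgb1 and Selplg had 3 each, whereas the 3 chemokine receptor genes had 0. To place the regions along each gene, distances are given between region centres, from a reference promoter region: the region marked both P and E that lies farthest upstream, or, at Cxcr4, which has none, the P region nearest an exon.

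**Figure D3:**
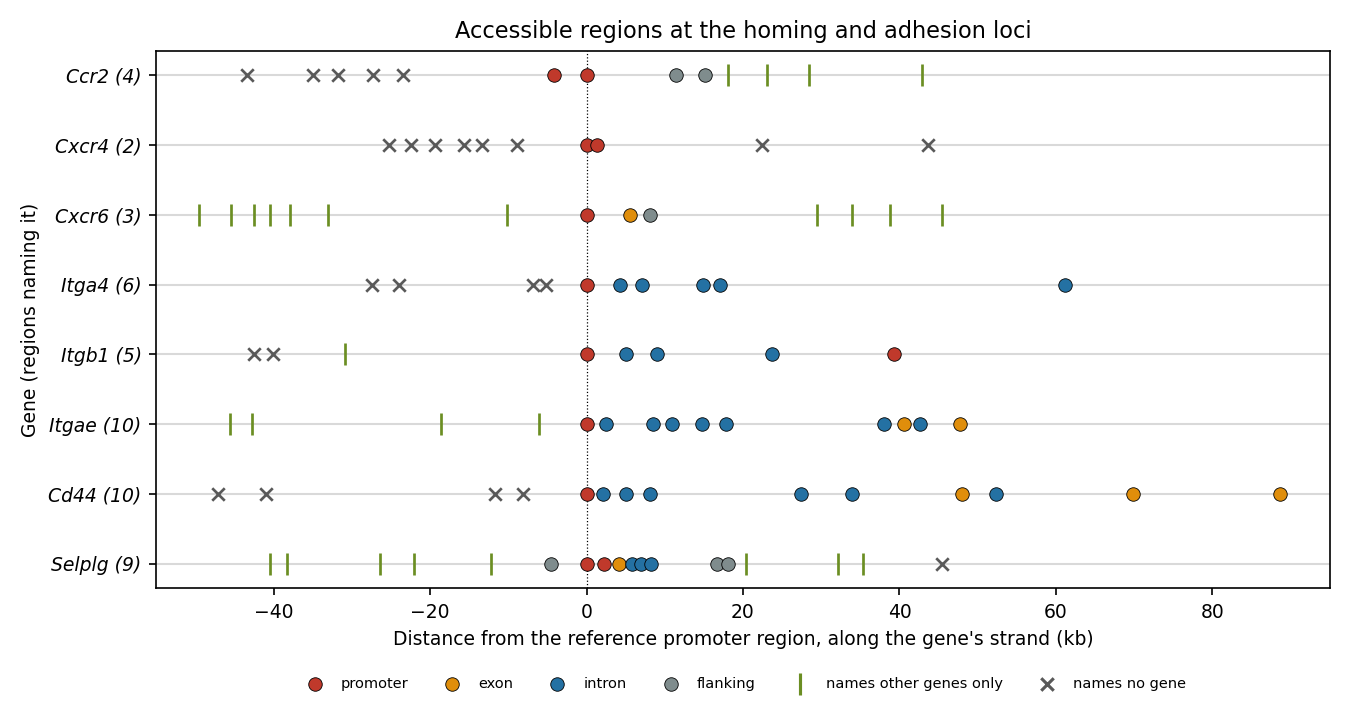
Position of regions along each of the 8 genes (horizontal axis, kb from the reference promoter region, negative values upstream). Filled points name the gene and are coloured by class, green bars within 50 kb name other genes only, and crosses within 50 kb name no gene. Regions of Itgae and Cd44 are spread over the gene, while those of Cxcr4 lie within 1.4 kb and are flanked upstream by 6 regions that name no gene.

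Sequence at the start sites was taken from RefSeq promoter windows (250 bases before to 50 after a start site, build GRCm38.p6), of which 6 of the 8 genes matched 1 each, Itgae and Selplg being the exceptions. These windows could not be placed inside the deposited regions, which are on GRCm39. They differed widely in CpG. The windows are shown for Itgb1 and Cxcr4, which have the most CpG dinucleotides, and for Ccr2 and Cxcr6, which have the fewest. Capitals mark each CpG.
Itgb1 (GRCm38.p6 chr8:128685404-128685703, plus strand): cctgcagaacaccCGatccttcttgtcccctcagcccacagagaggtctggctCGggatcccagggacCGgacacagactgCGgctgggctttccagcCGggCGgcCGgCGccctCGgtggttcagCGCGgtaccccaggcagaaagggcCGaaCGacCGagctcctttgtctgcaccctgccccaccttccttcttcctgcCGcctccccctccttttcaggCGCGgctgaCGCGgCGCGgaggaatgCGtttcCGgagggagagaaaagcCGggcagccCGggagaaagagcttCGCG
Cxcr4 (GRCm38.p6 chr1:128592250-128592549, minus strand): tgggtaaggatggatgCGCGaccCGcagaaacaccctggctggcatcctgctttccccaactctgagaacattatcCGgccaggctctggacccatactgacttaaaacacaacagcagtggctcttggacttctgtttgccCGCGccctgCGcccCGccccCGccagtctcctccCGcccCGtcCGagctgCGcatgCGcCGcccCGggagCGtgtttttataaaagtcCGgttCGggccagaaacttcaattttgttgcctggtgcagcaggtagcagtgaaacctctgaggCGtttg
Ccr2 (GRCm38.p6 chr9:124101933-124102232, plus strand): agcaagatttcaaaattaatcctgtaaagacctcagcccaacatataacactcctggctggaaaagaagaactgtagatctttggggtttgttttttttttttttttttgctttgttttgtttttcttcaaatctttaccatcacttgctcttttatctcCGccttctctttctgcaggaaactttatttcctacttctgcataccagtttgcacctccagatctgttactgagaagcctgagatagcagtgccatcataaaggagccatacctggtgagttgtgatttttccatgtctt
Cxcr6 (GRCm38.p6 chr9:123806227-123806526, plus strand): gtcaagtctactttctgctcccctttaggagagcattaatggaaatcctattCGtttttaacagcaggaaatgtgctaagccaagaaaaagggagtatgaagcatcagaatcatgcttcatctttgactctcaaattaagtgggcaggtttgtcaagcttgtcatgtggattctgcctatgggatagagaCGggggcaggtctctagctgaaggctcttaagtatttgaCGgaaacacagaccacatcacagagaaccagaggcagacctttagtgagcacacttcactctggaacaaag

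The Itgb1 window held 27 CpG at 67.3% G + C, and the Cxcr4 window 20 at 59.3%. The ratio of observed to expected CpG was 0.798 and 0.767, above the upper quartile of 0.75 over all 32851 RefSeq windows (median 0.384). The Ccr2 window held 1 CpG at 38% G + C, and only 5.43% of all windows had fewer CpG. The Cxcr6 window held 3 at 44.3%. Cd44 (6 CpG, 58% G + C) and Itga4 (10 CpG, 64.3%) were above the median G + C of 52.7% over all windows. Only Itga4 of this pair was above the upper quartile of 61.7%. The CpG ratios of Cd44 and Itga4, 0.246 and 0.322, were below the median of 0.384.

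**Figure D4:**
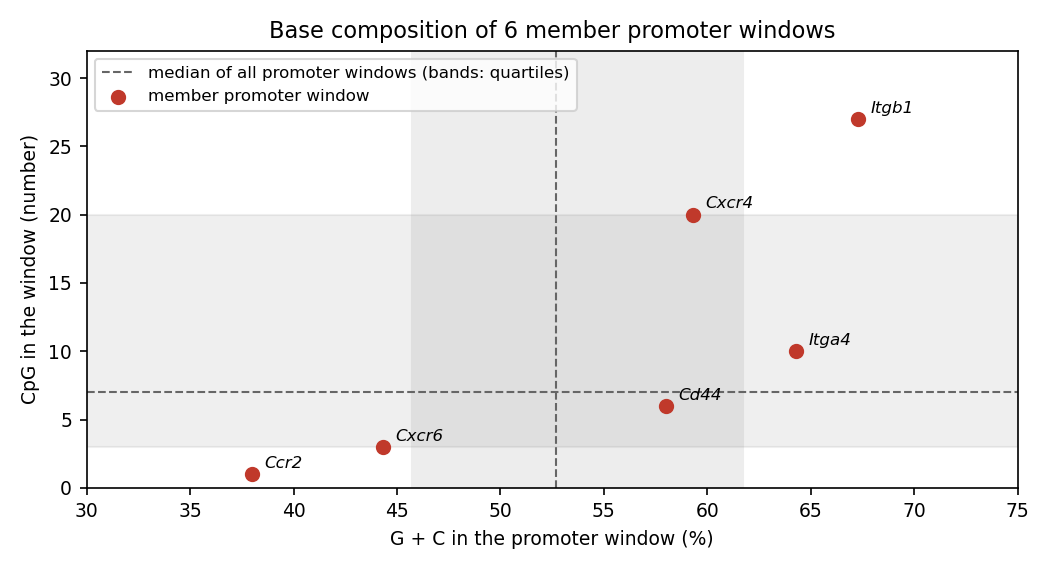
Number of CpG (vertical axis) against G + C (horizontal axis, %) in the 300-base promoter windows of 6 genes (red), with medians (dashed) and quartiles (bands) over all 32851 RefSeq windows. Itgb1 (27) and Cxcr4 (20) are high in CpG, and Ccr2 (1) and Cxcr6 (3) are low.

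An E-box of the kind that E proteins bind (CAGCTG or CACCTG, either strand) stood in 1 of the 6 windows, that of Itga4, and in 32.9% of all windows. It is shown because E proteins are the targets of Id3. Capitals mark the match, whose first base is at position -125, counting the start site as 0.
Itga4 (GRCm38.p6 chr2:79255176-79255475, plus strand): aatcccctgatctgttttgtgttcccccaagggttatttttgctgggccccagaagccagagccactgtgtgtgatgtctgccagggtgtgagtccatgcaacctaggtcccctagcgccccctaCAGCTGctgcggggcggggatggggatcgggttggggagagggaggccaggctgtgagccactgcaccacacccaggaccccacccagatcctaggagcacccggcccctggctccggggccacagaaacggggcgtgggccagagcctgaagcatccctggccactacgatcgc

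The looser pattern CANNTG, which includes both E-box forms, was found in 3 of the 6 windows (Ccr2, Cxcr6 and Itga4) and in 72.3% of all windows. The RUNX core TGTGGT stood in the windows of Cxcr6 and Itga4 (16.8% of all windows), the ETS core AGGAAG in those of Cd44 with 3 matches and Itgb1 with 2 (35.4%), and the GATA core AGATAA in those of Ccr2 and Cd44 (11.2%), each on either strand. The AP-1 letters TGACTCA or TGAGTCA (5.2% of all windows) and the T-box letters AGGTGTGA (1.28%) were in 0 of the 6. A match is a string of letters and not a bound site, and the regions away from the start sites were not searched.

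Cxcr4 encodes the receptor for CXCL12, which holds lymphocytes in bone marrow and lymphoid tissue. Both of its regions (chromosome 1, minus strand, GRCm39) were promoter regions. The first, chr1:128520101-128520600, was 500 bp wide with 5 windows and lay 71 bp from the nearest listed exon. The other, chr1:128518751-128519100, was marked promoter and intron, lay 1.4 kb downstream and held 2 windows over 350 bp. It shared the lowest number of windows among the 49 regions with 1 intron region of Selplg. The surroundings of Cxcr4 were less sparse than its own count. Within 50 kb of the reference region lay 9 others, of which 8 named no gene: 6 were upstream, at -8.9, -13.4, -15.7, -19.4, -22.4 and -25.2 kb, and 2 were downstream, at 22.4 and 43.6 kb. The 8 were 500 to 700 bp wide. Regions that name no gene lie more than 5000 bp from any listed exon, so the gene rule does not count them. Over the 15374 regions marked promoter and exon of 1 gene, the median number of other regions within 50 kb was 6 (quartiles 4 and 10).

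Ccr2 encodes the receptor for CCL2, used by monocytes and effector T cells to enter inflamed tissue. Its 4 regions (chromosome 9, plus strand) held 28 windows. The reference promoter region chr9:123903201-123903850 was 650 bp wide with 8 windows, the widest of the 8 reference regions. A second promoter region lay 4.2 kb upstream, 2337 bp from the nearest exon listed. The other pair was flanking: chr9:123914651-123915300 lay 1057 bp past an exon of Ccr2, and chr9:123918501-123919050 lay 4907 bp past it. Within 50 kb of the reference region lay 12 others. Of these 3 name Ccr2, and 5 name no gene, all 5 upstream between -43.4 and -23.5 kb.

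Cxcr6, whose product binds CXCL16 and marks T cells that lodge in tissue, had 3 regions on chromosome 9, and all of them lay over introns of Fyco1, a gene of vesicle transport on the opposite strand. The promoter region chr9:123635251-123635850 held 7 windows. The exon region 5.5 kb downstream held 6. The flanking region chr9:123643251-123643950, 2426 bp past an exon of Cxcr6, was 700 bp wide with 9 windows, and tied with 1 intron region of Cd44 for the most windows among the 49. Because reads of an opened site carry no strand of a gene, these regions cannot be told apart as belonging to Cxcr6 or Fyco1. Of 13 other regions within 50 kb, 11 named other genes, among them the gut homing receptor gene Ccr9 upstream and Xcr1 downstream.

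Itga4 encodes the alpha 4 integrin chain, which pairs with the beta 1 chain to bind VCAM1 and fibronectin. Its promoter region chr2:79085451-79085850 was 400 bp wide with 3 windows, the narrowest of the 8 reference regions, and only 3.95% of all regions marked promoter and exon were narrower. The 5 intron regions lay 4.3, 7.1, 14.9, 17.0 and 61.2 kb downstream. The one at 14.9 kb, chr2:79100251-79100900, was the widest, at 650 bp with 8 windows. The first 4 thus lay in the first 17.0 kb and none was listed between there and 61.2 kb. A further 4 regions that name no gene lay upstream, at -5.2, -6.8, -24.0 and -27.4 kb.

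Itgb1, the beta 1 chain that partners the alpha 4 chain and many other alpha chains, had 5 regions on chromosome 8. The reference promoter region chr8:129411951-129412450 was 500 bp wide with 5 windows. Intron regions followed at 5.0, 9.0 and 23.7 kb, with 5, 3 and 6 windows. The fifth, chr8:129451251-129451750, lay 39.3 kb downstream inside the gene and was marked promoter and intron, so the annotation used places a start of Itgb1 near it. Within 50 kb lay 7 other regions, 4 of them naming Itgb1, against the median of 6 for promoter and exon regions. Upstream the nearest region was 30.4 kb from the locus.

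Itgae encodes the alpha E chain (CD103), which pairs with the beta 7 chain to bind E-cadherin and marks T cells kept in epithelia. Its 10 regions (chromosome 11, plus strand) held 58 windows. The promoter region chr11:72981201-72981650 was 450 bp wide with 4 windows, and 6.6% of promoter and exon regions were narrower. The intron regions formed a first group at 2.5, 8.5, 10.9, 14.8 and 17.8 kb and, after a stretch without regions, a second with the remaining intron regions at 38.0 and 42.6 kb. Exon regions stood in the second group at 40.6 and 47.7 kb. The last, chr11:73028851-73029450, also covers the promoter and exon of Haspin, a kinase gene that lies within Itgae on the opposite strand, and therefore cannot be assigned to Itgae alone. All regions within 50 kb named a gene: 9 named Itgae, and 4 upstream named Ncbp3.

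Cd44 encodes a receptor for hyaluronan that rises on activated and memory T cells and is spliced into many forms. Its 10 regions held 63 windows, the most of the 8 genes, over 89.2 kb of chromosome 2 (minus strand). The promoter region chr2:102731551-102732150 was 600 bp wide with 7 windows. Intron regions followed at 2.1, 5.1 and 8.1 kb with 5, 5 and 3 windows, the second of them over the promoter span of Gm23731. The intron regions at 27.4 and 33.9 kb were larger, with 9 and 8 windows over 700 and 650 bp, and the last intron region, at 52.4 kb, held 3. The 3 exon regions lay at 48.0, 69.8 and 88.6 kb and held 7, 8 and 8 windows. Upstream, 4 regions that name no gene stood at -8.1, -11.7, -41.0 and -47.1 kb.

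Selplg encodes PSGL-1, the main ligand of P-selectin on T cells. Its 9 regions on chromosome 5 (minus strand) spanned 23.2 kb and held 48 windows. Both promoter regions, chr5:113970451-113971050 and chr5:113968201-113968800, were 600 bp wide with 7 windows, and lay 2.2 kb apart. An exon region followed at 4.2 kb with 6 windows, and intron regions at 5.8, 7.0 and 8.2 kb with 4, 2 and 5. Of the 3 flanking regions, 1 lay upstream of the reference region, at -4.5 kb. The other two lay 16.7 and 18.1 kb downstream, over the promoter span of ENSMUSG00000104972, a gene the table gives by identifier only. With 17 other regions within 50 kb, Selplg had the densest surroundings of the 8: only 1.52% of promoter and exon regions had more.

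In width the 49 regions were much like the table as a whole. Their median was 550 bp (quartiles 500 and 600, range 350 to 700) with 6 windows, and that of all regions 550 bp (quartiles 500 and 650, range 300 to 1100), also with 6 windows. The 8 reference promoter regions were 400 to 650 bp wide (median 550), while all 15374 promoter and exon regions had a median of 650 bp (quartiles 550 and 700). Itga4, Itgae, Itgb1 and Cxcr4 were at 400, 450, 500 and 500 bp, and 82.9% of promoter and exon regions were wider than 500 bp. A region with 1 window is 300 bp wide and each further window adds 50 bp. By this count 2 of the 49 regions lacked a window, the intron region of Itga4 at 7.1 kb and the exon region of Selplg, as did 2.24% of all regions.

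**Figure D5:**
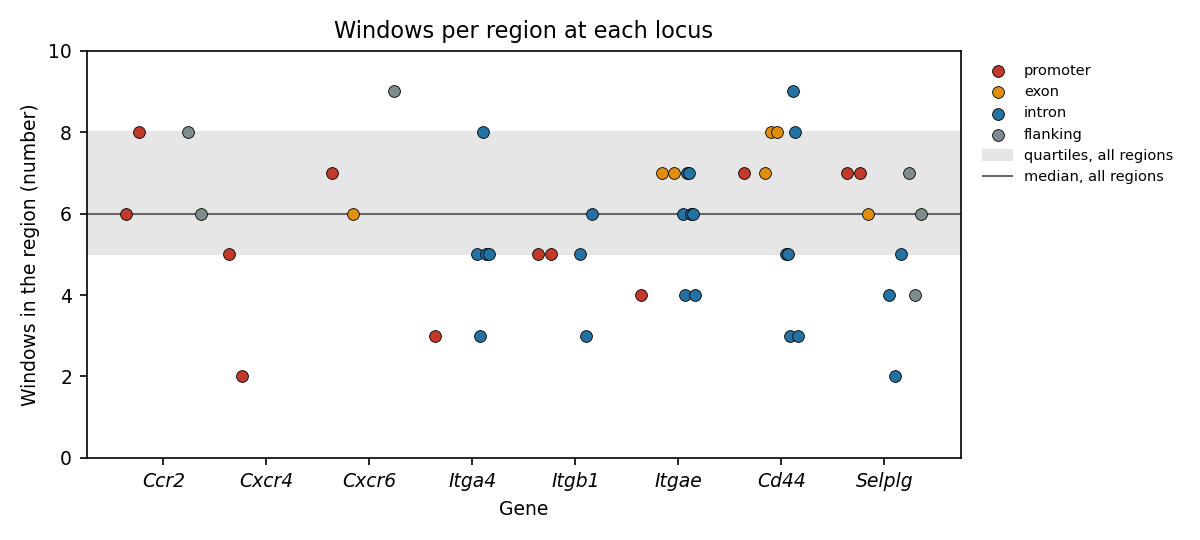
Number of windows (vertical axis) in each of the 49 regions by gene, coloured by class, with the median (line) and quartiles (band) of all 65983 regions. Both regions of Cxcr4 lie below the median of 6, and those of Ccr2 lie at or above it.

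The other genes of the homing and adhesion system were taken from a list of 43 chosen by role. All 43 had at least 1 region, with a median of 4 (range 1 to 23), beside a median of 5.5 for the 8 genes and 2 for all named genes. Those with the most were Cx3cr1, the fractalkine receptor gene, with 23 regions, 20 of them intron regions, and Ccr9 and the beta 3 integrin gene Itgb3 with 15 each. A promoter region of their own was listed for 37 of the 43. By role, the 18 chemokine and lipid receptor genes had a median of 4 regions, the 11 integrin genes 6, the 6 selectin and ligand enzyme genes 4 and the 8 other adhesion genes 3. Itgb7, whose product pairs with those of Itga4 and Itgae, had 3 regions, 2 of them promoter and 1 intron.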

How the data were processed

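ATAC-seq was run on 18 mouse CD4 T cell samples in 6 groups of 3. The submitters' processing notes name Trim Galore, BWA, Picard, edgeR and the build GRCm39, with no version or role. How windows became regions is not stated there. The deposited table has 395898 rows, 65983 regions under 6 contrasts. Per the file headers it holds 1 log2 fold change, a p-value and an adjusted p-value per region, the number of windows (a count of windows, not reads), and the genes overlapped or flanking. Fold changes were not used, and p-values only to check the table's order and count deposited calls at 0.05. Library depth is unknown, so no interval is given.

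Regions were parsed with Python 3.11.15 and pandas 2.3.3; the parser, class rule and motif counter were tested on simulated data. Promoter windows come from RefSeq, build GRCm38.p6. The 8 genes and the lists were chosen with earlier results of these data known; the reference regions and the 50 kb distance were chosen after seeing the table. Named genes were the 8, the 3 of the role list with the most regions and any with none. Itgb7 was named after its values were seen. Ccr1, Ccr3 and Xcr1 were named as genes of the chemokine receptor run that holds Cxcr6 and Ccr2. Some genes of the lists are not reported here. No gene of like pattern was sought, as no value per sample is used. No comparison between groups was tested. Alternatives varied the assignment of regions, their minimum size, their merging, the class rule and the E-box letters.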

Additional observations from a re-analysis of the deposited data

How the results depend on the processing

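The total of 49 regions became 43 with overlapping regions only, and 46 with runs less than 1000 bp apart merged. It stayed at 49 with at least 2 windows or flanking regions up to 5000 bp. Neither of these last settings could remove a region. The fewest windows among the 49 was 2, and 5000 bp is the longest distance listed. By gene, the one count to move by more than 1.5 times was Ccr2, from 4 to 2, with overlapping regions only. Under that setting Cxcr6 went from 3 to 2 and Selplg from 9 to 6. Selplg also went from 9 to 6 when runs were merged. Exon regions went from 7 to 15 when a region counted in each class it holds, and flanking regions from 6 to 2 with regions that overlap no other gene. Promoter windows with an E-box went from 1 to 3 with CANNTG. Median width and windows were the same in overlapping regions. Motifs and composition were computed for promoter windows alone, so the planned restriction to promoters was not a separate setting. No paired analysis was possible because there are no values for single samples; leaving out a replicate was not run for the same reason. Depth is unknown and its limits were not judged.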

Other observations

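Cxcr6 and Ccr2 are part of a run of chemokine receptor genes on chromosome 9. Along it the table listed 15 regions for Ccr9, 11 of them intron regions, 3 for Cxcr6, 2 each for Xcr1, Ccr1 and Ccr3, and 4 for Ccr2. Each of these 6 genes had a region over its own promoter, and Ccr9 had 3. Between the last region of Cxcr6 and the first of Ccr2, 255.2 kb apart, lay 31 regions, and 19 of them named no gene. These counts give called sites and not their level in any group.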
